A study of Arabidopsis thaliana with 6 samples.

Results

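The transcripts described here encode 10 nuclear-encoded proteases and chaperones of the plastid, taken as the rows with the listed identifiers from a table of 33532 gene identifiers. They are the thylakoid FtsH genes FTSH5 (AT5G42270, also VAR1), FTSH2 (AT2G30950, also VAR2), FTSH1 (AT1G50250) and FTSH8 (AT1G06430), the Clp genes CLPP3 (AT1G66670), CLPP4 (AT5G45390), CLPR1 (AT1G49970) and CLPC1 (AT5G50920), the disaggregase gene CLPB3 (AT5G15450) and the chaperonin gene CPN60A (AT2G28000). All 10 were found, and all 10 had a mean of at least 1 FPKM (fragments counted for a gene, divided by the length of its transcript and by all fragments mapped in that library), the filter that left 19035 genes for testing. RNA came from whole seedlings of Arabidopsis thaliana, wild type, ecotype Col-0, after 10 days on 1/2 MS medium. The 3 control libraries had no drug and the 3 doxycycline libraries came from medium with 5 µg/mL doxycycline, a tetracycline that blocks bacterial-type ribosomes, present throughout growth. The series title asks how seedlings respond when mitochondrial translation is impaired. Plastids also carry bacterial-type ribosomes, so both organelles are possible targets of the drug.

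FtsH proteins are membrane-bound ATP-dependent metalloproteases. In thylakoids they form mixed hexamers of type A subunits (FTSH1 and FTSH5) and type B subunits (FTSH2 and FTSH8), which remove damaged photosystem II proteins, and loss of FTSH5 or FTSH2 gives variegated leaves. The Clp protease of the stroma is a barrel built from catalytic CLPP and non-catalytic CLPR subunits, one of which, CLPP1, is encoded in the plastid genome, and it is fed by the HSP100 chaperones CLPC1, CLPC2 and CLPD. CLPB3 is a related HSP100 that dissolves protein aggregates and has no protease partner. CPN60A is the alpha subunit of the chaperonin that folds the large subunit of Rubisco, together with CPN60 beta subunits and the co-chaperonins CPN20 and CPN10.

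The libraries of a group did not resemble each other equally. Control 1 correlated with the doxycycline libraries at 0.961 to 0.964 over all genes tested (log2 values, across genes, which are not independent replicates), but with controls 2 and 3 at 0.831 and 0.867. Whether control 1 is labelled correctly was not tested and cannot be settled from these files, and every value set against the controls depends on it. Differences are therefore also given without control 1 and with control 1 as the only control. For the median gene the doxycycline difference was -0.29 log2 on the FPKM scale as deposited, and 0.0074 after median-of-ratios scaling. The low FPKM values put the depth at an estimated 18700000 to 22000000 fragments a library. The sum of 6 shoot markers (RBCS1A, RBCS2B, CA1, RCA, LHCB3 and GAPA) was 13984 to 27468 FPKM in the control group against 22319 to 28473 FPKM with doxycycline. The sum of 6 root markers (PYK10, CASP1, COBL9, EXPA7, TIP2;3 and TIP4;1) reached 550.1 FPKM in control 1, 1613 FPKM in control 2, 1592 FPKM in control 3 and 735 to 816 FPKM with doxycycline, nearly all of it PYK10, and no marker of either list was at 0 in any library. Control 1 thus had a root marker sum nearer to the doxycycline libraries than to the other controls, a sum led by PYK10. Of the 5 root markers tested, 4 had negative differences and 1 a positive one (median -0.39 log2). TIP2;3 was the positive one, at 1.955, 2.026 and 9.21 FPKM in controls 1 to 3 against 10.3, 8.42 and 10.7 FPKM with doxycycline. The part of root and shoot markers in the results was not tested. In bulk RNA, fewer cells of a type and less RNA per cell cannot be told apart.

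With doxycycline, 3 of the 10 transcripts lay above every control library, namely CLPP4, FTSH2 and FTSH5, and 0 lay below. Among all genes tested 9.59% lay above every control and 25.7% below. After median-of-ratios scaling 4 of the 10 lay above, beside 18.2% of all genes. After quantile normalization 2 lay above and 1 below, beside 17.2% and 16.7% of all genes. With limma on log2(FPKM + 1), 0 of the 10 passed a Benjamini-Hochberg adjusted p of 0.05, as did 0% of all genes, while CLPP4, FTSH2 and FTSH5 had an unadjusted p under 0.05, as did 6.83% of genes in that direction and 18.8% in the other. Limma with robust variance estimates also called 0. The median of the 10 differences was 0.19 log2, beside -0.29 for all genes, and 0.51 beside 0.0074 after median-of-ratios scaling. Against controls 1, 2 and 3 taken singly, the members' medians were 0.46, 0.29 and -0.017, beside -0.0020, -0.54 and -0.30 for all genes tested.

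**Figure D1:**
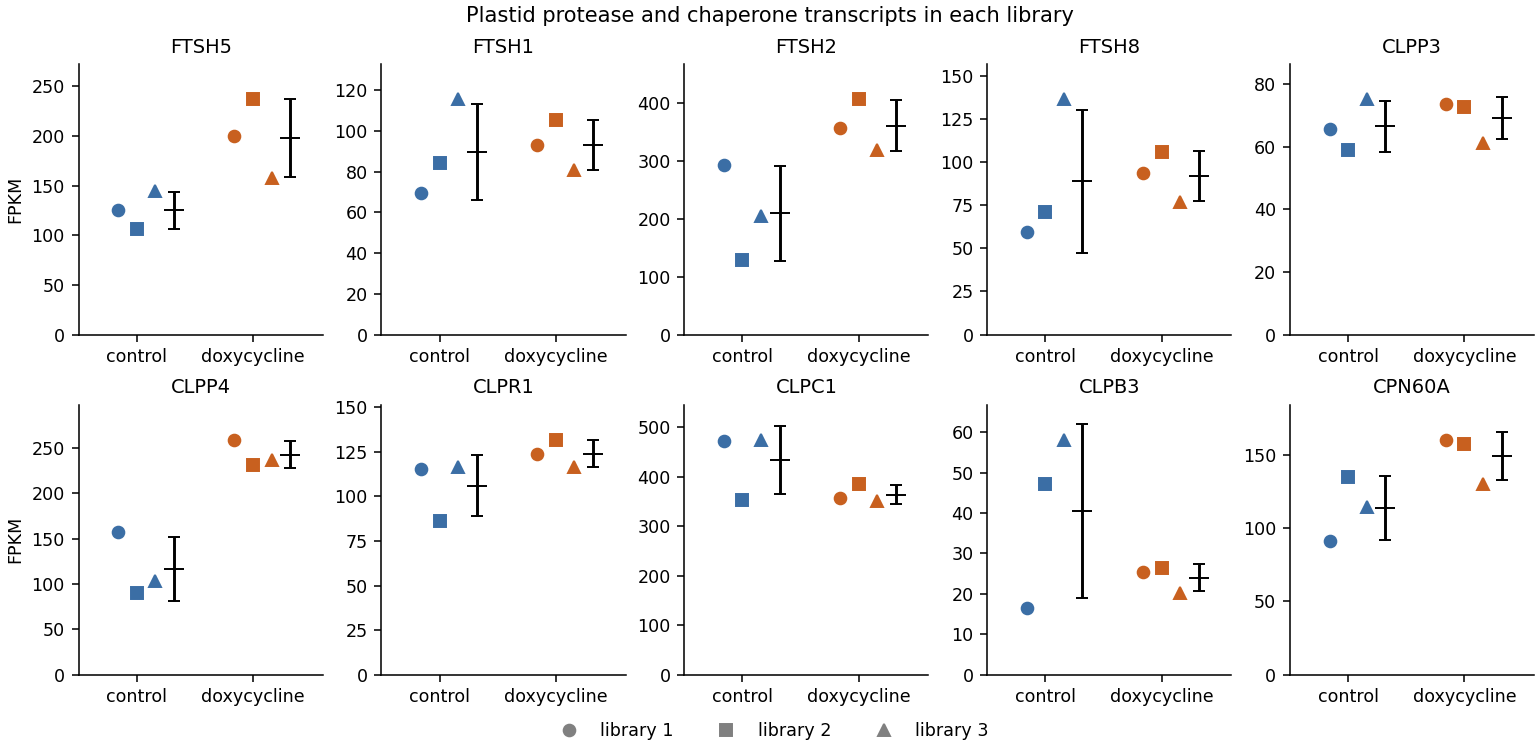
FPKM of each of the 10 transcripts in the 3 control (blue) and 3 doxycycline (orange) libraries, with the library number given by the symbol and the mean ± SD (n = 3) in black on axes that start at 0. CLPP4, FTSH2 and FTSH5 are the panels in which every doxycycline library lies above every control, and CLPB3 is the panel with the widest relative spread between controls.

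Among the FtsH genes, FTSH2 and FTSH5 lay above every control on the deposited scale, FTSH1 and FTSH8 overlapped, and 0 of the 4 passed the threshold. FTSH2, the more abundant type B transcript, stood at 292, 129 and 205 FPKM in control libraries 1 to 3 against 356, 405 and 318 FPKM in doxycycline libraries 1 to 3. Control 2 was lowest, and the nearest control, control 1, lay just under the lowest doxycycline library. The log2 difference was 0.85 (SE 0.322; limma, adjusted p = 0.171), and 1.13 without control 1 (adjusted p = 0.0124), a fit in which 45.4% of all genes passed. With control 1 as the only control it was 0.29 (adjusted p = 0.256). After quantile normalization the groups for FTSH2 overlapped, with a difference of 0.77 (adjusted p = 0.230).

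FTSH5, the leading type A subunit, stood at 125, 106 and 144 FPKM in the control group against 199, 237 and 158 FPKM with doxycycline. The groups did not overlap, although control 3 and doxycycline library 3 were close. Its log2 difference of 0.65 (SE 0.228; limma, adjusted p = 0.158) was 0.65 without control 1 (adjusted p = 0.0599) and 0.64 with control 1 alone (adjusted p = 0.111). Against controls 2 and 3 taken singly it was 0.87 and 0.44.

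FTSH1, the second type A gene, stood at 69.4, 84.5 and 116 FPKM in the control group against 93.0, 105 and 81.1 FPKM with doxycycline. The doxycycline values lay inside the range of the controls. The difference was 0.075 log2 (95% interval -0.48 to 0.63; limma, adjusted p = 0.840), and -0.093 without control 1. FTSH8, the second type B gene, stood at 59.3, 71.2 and 136 FPKM in the control group against 93.7, 106 and 77.0 FPKM with doxycycline. Control 3 was the highest of the 6 libraries and control 1 the lowest. The difference was 0.13 log2 (95% interval -0.64 to 0.91; limma, adjusted p = 0.793), and -0.11 without control 1. With control 1 alone it was 0.62 (adjusted p = 0.0832). The wide intervals leave room for sizeable changes of FTSH1 and FTSH8 in either direction.

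FPKM is scaled per length, so the FtsH genes can be set side by side within a library, and such ratios do not depend on how libraries are scaled. FTSH1 stood at 0.555, 0.794 and 0.802 of the FTSH5 level in controls 1 to 3 and at 0.466, 0.445 and 0.514 of it with doxycycline. Every doxycycline ratio lay below every control ratio, and the mean difference was -0.58 log2 (exact permutation test, two-sided, p = 0.1, the smallest that 3 against 3 allows, adjusted p = 0.233 over 7 ratios). The FTSH8 to FTSH2 ratio was 0.203, 0.552 and 0.666 in controls and 0.263, 0.261 and 0.242 with doxycycline. Control 1 lay below and controls 2 and 3 far above the doxycycline libraries, so the groups overlapped (-0.72 log2; exact permutation test, p = 0.4, adjusted p = 0.56).

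The ratio of type A to type B transcripts (FTSH5 plus FTSH1 over FTSH2 plus FTSH8) was 0.553, 0.954 and 0.761 in controls and 0.650, 0.669 and 0.604 with doxycycline, and did not separate the groups (-0.20 log2; exact permutation test, p = 0.5, adjusted p = 0.583). The sum of the 4 FtsH genes was 546, 391 and 601 FPKM in the control group against 742, 853 and 634 FPKM with doxycycline. FTSH2 made up 53.5%, 33.0% and 34.1% of that sum in controls 1 to 3 and 47.5% to 50.2% with doxycycline, with control 1 on the doxycycline side of the other controls. FTSH1 contributed 12.7%, 21.6% and 19.2% in these controls and 12.3% to 12.8% with doxycycline.

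**Figure D2:**
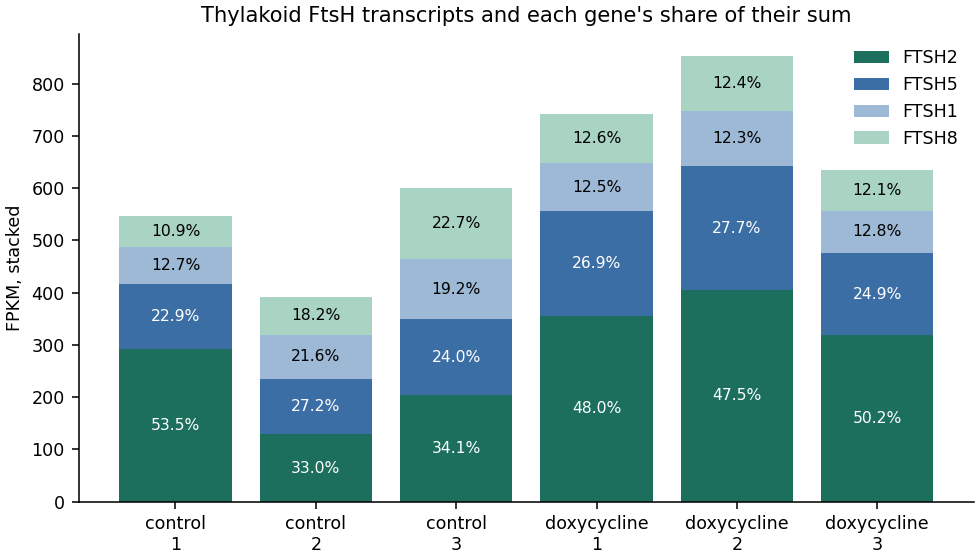
Stacked FPKM of the 4 thylakoid FtsH transcripts in each library, with each gene's share of the sum printed in its segment; there are no error bars because each bar is 1 library. The doxycycline bars hold 47.5% to 50.2% FTSH2, and the makeup of control 1 is nearer to theirs than to that of controls 2 and 3.

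Reads of related FtsH genes could in principle be split between copies. In coding sequences of assembly TAIR10.1 (RefSeq annotation), FTSH1 and FTSH5 were identical at 82.4% of aligned bases, with a longest shared run of 35 bases. FTSH2 and FTSH8 were identical at 87.2%, with a longest shared run of 41 bases. Across types the identity was 64.3% to 66.7%. None of the 2052 windows of 100 bases in FTSH1 occurred in FTSH5, and none of the 2001 in FTSH2 occurred in FTSH8. FTSH1 and FTSH8 had the highest correlation among the 45 pairs of members (r = 0.979 over 6 libraries, log2 values), although they are of different types. The median pair had r = 0.32, and the correlations share the libraries' own differences.

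Among the Clp core genes that are members, CLPP4 stood apart from CLPP3 and CLPR1. It was not alone in the core, since CLPP1, CLPP6, CLPR2, CLPR3 and CLPR4 also lay above every control, while CLPP5 overlapped. CLPP4, a catalytic subunit, stood at 157, 89.7 and 104 FPKM in the control group against 259, 230.4 and 237 FPKM with doxycycline. Control 1 was the highest control and still lay well below the lowest doxycycline library. The difference of 1.08 log2 (SE 0.247; limma, adjusted p = 0.128) had the lowest p of the 10 members. CLPP4 passed without control 1, at 1.32 log2 (limma, adjusted p = 0.00222), in a fit where 9.77% of all genes passed as higher. With control 1 as the only control the difference was 0.62 log2. In that fit the single control is given the spread of the treated libraries.

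CLPP3, another catalytic subunit, stood at 65.8, 58.8 and 75.1 FPKM in the control group against 73.6, 72.6 and 61.3 FPKM with doxycycline. The groups overlapped throughout, with a difference of 0.057 log2 (95% interval -0.37 to 0.48; limma, adjusted p = 0.842). CLPR1, a non-catalytic subunit, stood at 115, 86.1 and 117 FPKM in the control group against 124, 132 and 116 FPKM with doxycycline. Control 2 lay below the other 5 libraries, and the difference was 0.24 log2 (95% interval -0.22 to 0.69; limma, adjusted p = 0.429).

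Set against CLPP4 within each library, CLPP3 made up 0.420, 0.656 and 0.725 of its level in controls and 0.285, 0.315 and 0.259 with doxycycline. The ratio was lower in every doxycycline library (-1.03 log2; exact permutation test, p = 0.1, adjusted p = 0.233). CLPR1 stood at 0.736, 0.960 and 1.12 of the CLPP4 level in controls and at 0.479, 0.572 and 0.492 with doxycycline, again with no overlap (-0.85 log2; exact permutation test, p = 0.1, adjusted p = 0.233). Against control 1 alone these differences were -0.56 and -0.52 log2. An exact permutation test of 3 against 3 libraries cannot go below 0.1.

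The HSP100 chaperones were the members with negative differences, although that of CLPC1 flipped after median-of-ratios scaling and that of CLPB3 against control 1 alone. CLPC1, which unfolds substrates for the Clp core and also acts at the import machinery of the inner envelope, was the most abundant member on average in both groups. It stood at 473, 354 and 475 FPKM in the control group against 357, 385 and 350.3 FPKM with doxycycline. Controls 1 and 3 lay above all doxycycline libraries and control 2 among them. The difference of -0.24 log2 (95% interval -0.77 to 0.29; limma, adjusted p = 0.486) was close to the median of all genes, and turned to 0.091 after median-of-ratios scaling.

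CLPB3 was the least abundant member in all 6 libraries, at 16.6, 47.1 and 58.1 FPKM in the control group against 25.4, 26.5 and 20.2 FPKM with doxycycline. Control 1 lay below and controls 2 and 3 far above the doxycycline libraries. Over all libraries the difference was -0.56 log2 (SE 0.442; limma, adjusted p = 0.411). Without control 1, CLPB3 passed as lower at -1.10 log2 (limma, adjusted p = 0.00579), in a fit where 35.6% of all genes passed as lower. Against control 1 alone the sign turned to 0.50 log2. The CLPC1 to CLPB3 ratio was 28.6, 7.51 and 8.17 in controls and 14.0, 14.5 and 17.3 with doxycycline (0.34 log2; exact permutation test, p = 0.6, adjusted p = 0.6).

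CPN60A stood at 91.1, 135 and 115 FPKM in the control group against 160, 157 and 130.0 FPKM with doxycycline. Doxycycline library 3 lay just under control 2, which is the whole of the overlap. The difference was 0.40 log2 (SE 0.213; limma, adjusted p = 0.256), 0.26 without control 1 (adjusted p = 0.247) and 0.70 with control 1 as the only control (adjusted p = 0.0415). After median-of-ratios scaling CPN60A lay above every control (0.73 log2, adjusted p = 0.103). Its ratio to CLPC1 was 0.193, 0.381 and 0.241 in controls and 0.449, 0.408 and 0.371 with doxycycline (0.65 log2; exact permutation test, p = 0.2, adjusted p = 0.35).

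**Figure D3:**
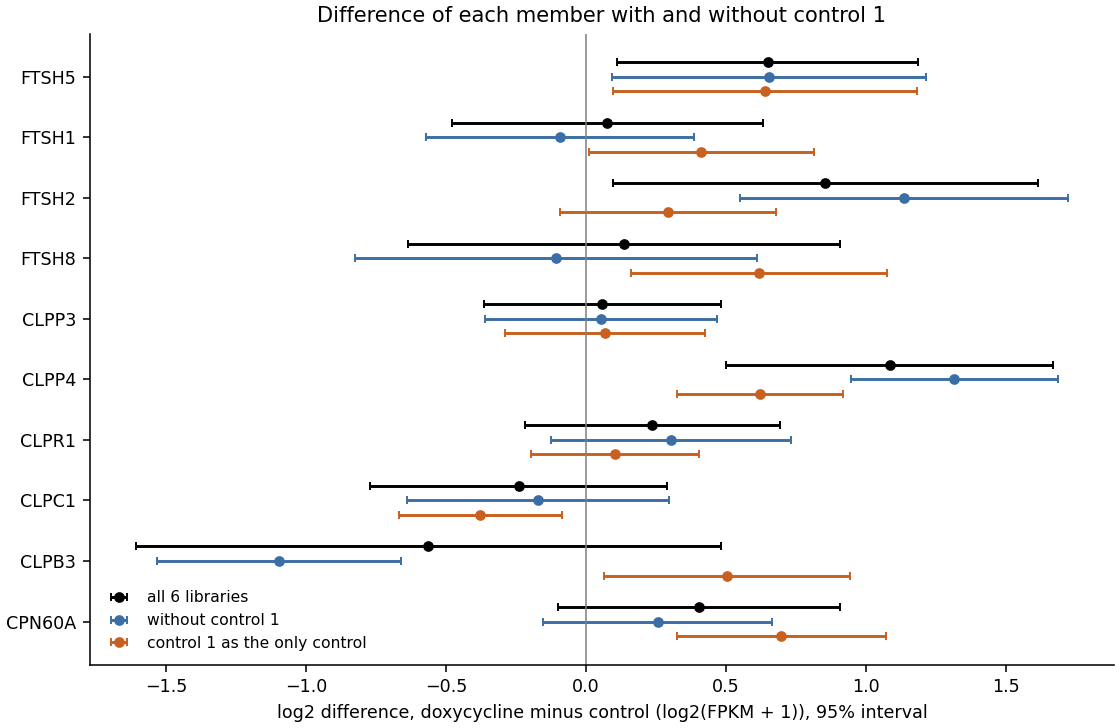
Log2 difference of each member between doxycycline and control on the log2(FPKM + 1) scale, with limma's 95% interval, over all 6 libraries (black), without control 1 (blue) and with control 1 as the only control (orange). The intervals of FTSH5 and CLPP4 lie above 0 with all 3 choices, which share the doxycycline libraries. These intervals are unadjusted, and FTSH5 passed the adjusted threshold with none of the 3 choices. Over all 6 libraries and without control 1, 4876 and 10519 of 19035 genes had an unadjusted p under 0.05 (limma). With control 1 alone the spread comes from the doxycycline libraries only. FTSH2 is larger without control 1 (1.13) than with it alone (0.29), and CLPB3 changes sign (-1.10 and 0.50).

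The order of levels was led by CLPC1 and FTSH2. In controls, CLPC1 at 434 ± 69.3 FPKM and FTSH2 at 209 ± 81.8 FPKM (SD, n = 3 each) did not overlap. In doxycycline libraries CLPC1 at 364 ± 18.5 FPKM and FTSH2 at 360.0 ± 43.6 FPKM did, and FTSH2 was the higher of them in doxycycline library 2. Next came CLPP4 and FTSH5 in doxycycline libraries, whose ranges overlapped, and FTSH5 and CLPP4 in controls, which overlapped too. In controls the ranges of CPN60A, CLPR1, FTSH1 and FTSH8 each overlapped with the next. In doxycycline libraries CLPR1 lay above FTSH1, FTSH8 above CLPP3 and CLPP3 above CLPB3 with no overlap. Ranked from the highest, CLPP4 took places 3, 5 and 8 among the members in controls 1 to 3 and places 3, 4 and 3 in the doxycycline libraries.

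The pathway around these genes was described with 48 further plastid genes in 5 lists. Of the 46 that could be tested, 22 lay above every control and 1 below, beside 9.59% and 25.7% of all genes. The median difference was 0.34 log2 (all genes -0.29), and 0.66 after median-of-ratios scaling (all genes 0.0074). With limma, 0 passed the adjusted threshold, 20 had an unadjusted p under 0.05 on the higher side and 1 on the lower. Without control 1, 20 passed as higher and 5 as lower, and with control 1 as the only control 9 passed as higher and 0 as lower, where 9.77% and 35.6%, and 6.78% and 4.75%, of all genes passed in these directions.

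Most of the remaining Clp genes stood higher with doxycycline. Of 12, 8 lay above every control and 1 below, beside 9.59% and 25.7% of all genes. Their median was 0.54 log2 (all genes -0.29). CLPP6, a catalytic partner of CLPP3 and CLPP4, stood at 73.4, 40.8 and 56.5 FPKM in the control group against 106, 98.2 and 108 FPKM with doxycycline. CLPR2, a non-catalytic subunit with the lowest p of the list, stood at 106 ± 15.7 FPKM in the control group against 182 ± 10.6 FPKM with doxycycline (SD, n = 3 each; 0.79 log2, limma, adjusted p = 0.128). CLPR4, the most abundant of the list, stood at 134 ± 28.0 and 205 ± 2.02 FPKM, and CLPR3 at 105 ± 15.9 and 154 ± 11.3 FPKM. These subunits lay above every control, and all 4 passed without control 1, a fit in which 45.4% of all genes passed (9.77% as higher).

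CLPP5, also catalytic, overlapped, at 174, 104 and 144 FPKM in the control group against 173, 181 and 165 FPKM with doxycycline. The plastid-encoded CLPP1 (ATCG00670), the subunit encoded in the plastid itself, stood at 21.6, 39.5 and 19.6 FPKM in the control group against 60.0, 54.0 and 42.7 FPKM with doxycycline. It lay above every control, with control 2 close to the lowest doxycycline library (0.99 log2; limma, adjusted p = 0.140). The chaperone CLPC2 stood at 36.2 ± 8.45 and 35.0 ± 3.12 FPKM. CLPC2 and CLPC1 were identical at 78.3% of aligned coding bases, with a longest shared run of 38 bases. CLPD, an HSP100 known to be induced by drought and senescence, was the 1 gene of the list below every control, at 45.1, 49.3 and 87.9 FPKM against 32.2, 37.8 and 30.8 FPKM (-0.78 log2; limma, adjusted p = 0.159).

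Most of the chaperonin partners stood higher with doxycycline. Of 8, 5 lay above every control and 0 below, beside 9.59% and 25.7% of all genes. Their median was 0.69 log2 (all genes -0.29). The 5 passed as higher without control 1 and 0 passed as lower, beside 9.77% and 35.6% of all genes. In that limma fit 1 gene of the list had an unadjusted p under 0.05 on the lower side. CPN10-2 (AT2G44650), a small co-chaperonin with the lowest p of the list, stood at 46.9, 34.0 and 36.9 FPKM in the control group against 113, 108 and 93.7 FPKM with doxycycline (1.41 log2, SE 0.191; limma, adjusted p = 0.121). It passed both without control 1 (1.54 log2, adjusted p = 0.00151) and with control 1 alone (1.14 log2, adjusted p = 0.0155). CPN20, the tandem co-chaperonin and the most abundant of the list, stood at 230.0, 268 and 258 FPKM in the control group against 525, 467 and 409.8 FPKM with doxycycline. CPN60B1, a main beta subunit, stood at 96.4 ± 13.2 and 173 ± 28.7 FPKM (SD, n = 3 each; 0.83 log2, limma, adjusted p = 0.131). CPN60B2 overlapped, at 21.2, 56.2 and 47.5 FPKM in the control group against 51.1, 56.7 and 34.7 FPKM with doxycycline. CPN60B1 and CPN60B2 were identical at 88.0% of aligned coding bases, near the 87.2% of FTSH2 and FTSH8. None of the 1704 windows of 100 bases in CPN60B1 occurred in CPN60B2. Their longest shared run was 59 bases, against 41 for FTSH2 and FTSH8, so their split may be less certain than that of the FtsH pairs.

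Of 9 other FtsH genes of the plastid that could be tested, 2 lay above every control and 0 below, beside 9.59% and 25.7% of all genes. Their median was -0.010 log2 (all genes -0.29), and FTSH6 was too low to test. After median-of-ratios scaling 4 lay above, beside 18.2% of all genes, and the median was 0.31 (all genes 0.0074). FTSHI4, one of the FtsH-like proteins that lack the protease site, stood at 7.46, 10.9 and 11.4 FPKM in the control group against 17.8, 19.6 and 14.5 FPKM with doxycycline (0.75 log2; limma, adjusted p = 0.142). FTSH11, the most abundant of the list, stood at 34.4 ± 8.78 and 31.0 ± 2.45 FPKM. Among the other proteases, 5 of 11 lay above every control and 0 below, against those same 9.59% and 25.7% of all genes. Their median was 0.34 log2 (all genes -0.29). The Deg proteases are ATP-independent serine proteases of the thylakoid, and DEG8, with the lowest p of the list, stood at 30.3, 23.2 and 18.7 FPKM in the control group against 45.8, 50.3 and 41.3 FPKM with doxycycline (0.92 log2; limma, adjusted p = 0.128). DEG1, the most abundant, stood at 64.3 ± 9.76 and 89.7 ± 3.17 FPKM.

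Among the other chaperones, 2 of 6 tested lay above every control and 0 below, beside 9.59% and 25.7% of all genes. Their median was -0.11 log2 (all genes -0.29), and 0.22 after median-of-ratios scaling (all genes 0.0074). CGE1, the nucleotide exchange factor of the stromal HSP70, stood at 64.0 ± 4.65 and 105 ± 13.2 FPKM (SD, n = 3 each; 0.71 log2, limma, adjusted p = 0.132). The stromal HSP70 gene CPHSC70-1, the most abundant of the list, stood at 88.0, 119 and 141 FPKM in the control group against 105, 108 and 90.9 FPKM with doxycycline. Like CLPB3, it was lowest in control 1 and highest in control 3. HSP21, a small heat shock protein of the plastid, was listed at 0 in all 3 doxycycline libraries and control 2, and at 0.055 and 1.45 FPKM in controls 1 and 3, too low to test.

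The 6 shoot markers also had positive medians, 0.36 log2 in the full comparison and 0.10, 0.76 and 0.16 against control libraries 1, 2 and 3, although the first turned to -0.38 after quantile normalization. GAPA lay above every control library and RBCS2B below each of them. Their part in the list medians was not tested.

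**Figure D4:**
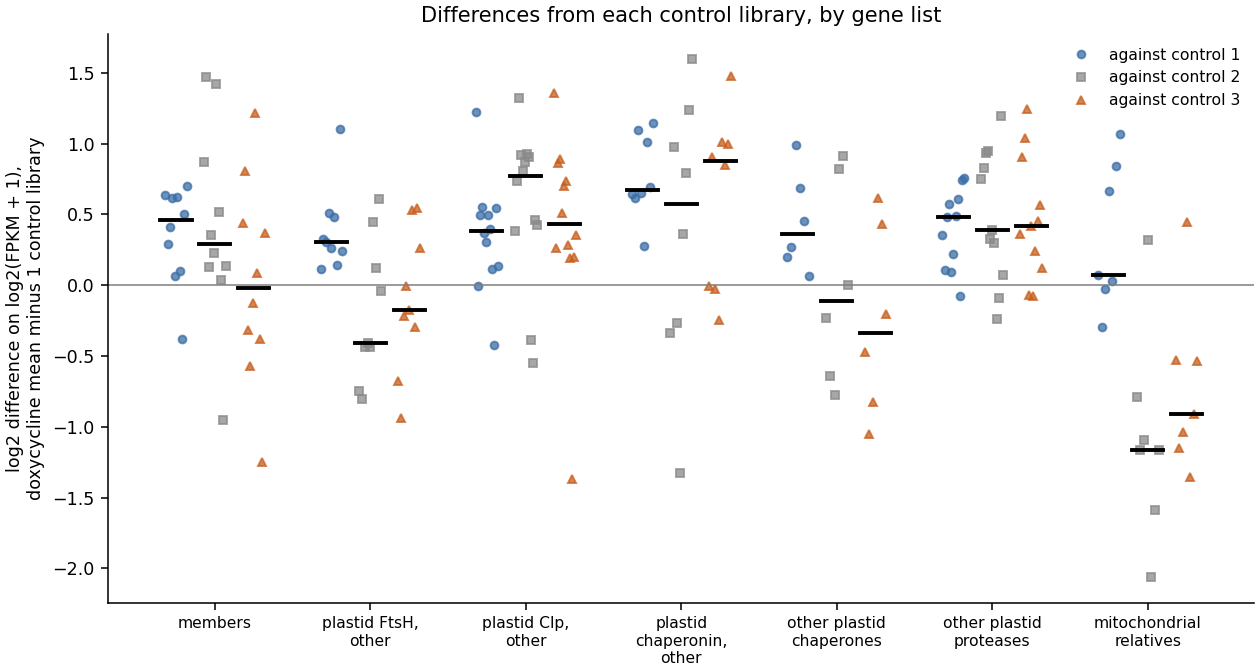
Log2 difference between the mean of the 3 doxycycline libraries and each single control library, on the log2(FPKM + 1) scale, for the tested genes of each list; black bars are medians. The medians of the other Clp genes (0.38, 0.77 and 0.43), chaperonin genes (0.67, 0.58 and 0.87) and other proteases (0.48, 0.39 and 0.42) lie above 0 against each control. Those of the members (0.46, 0.29 and -0.017) do so against controls 1 and 2 only. All genes tested had medians of -0.0020, -0.54 and -0.30, below those of the members against each control.

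Of 7 mitochondrial relatives of these genes, 1 lay above every control and 2 below, shares near those of all genes (9.59% and 25.7%). Their median was -0.55 log2 in the full comparison (all genes -0.29) and -0.22 after median-of-ratios scaling, with 1 gene below. Against each control library in turn the median was 0.073, -1.16 and -0.91, so the list depended on control 1. Without control 1, 6 of the 7 passed as lower and 0 as higher, where 35.6% and 9.77% of all genes passed in these directions. FTSH4, a protease of the inner mitochondrial membrane, stood at 23.8, 44.3 and 43.9 FPKM in the control group against 18.3, 21.5 and 17.9 FPKM with doxycycline (-0.87 log2; limma, adjusted p = 0.143). HSP60, the mitochondrial chaperonin and most abundant of the list, stood at 19.5, 110 and 68.2 FPKM in the control group against 39.1, 35.0 and 33.6 FPKM with doxycycline. Its difference was -1.25 log2 without control 1 (adjusted p = 0.00736) and 0.84 with control 1 as the only control (adjusted p = 0.0247). The difference between plastid and mitochondrial genes was not tested.

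The transcripts whose pattern over the 6 libraries was most like the mean of the 10 members were RAP (AT2G31890, r = 0.989), AT1G68730 (r = 0.989), AT3G23605 (r = 0.986), ZDS (AT3G04870, r = 0.984) and VTE1 (AT4G32770, r = 0.981). They head a ranking of all other genes tested over only 6 libraries, where such high r can arise by chance, and shared regulation was not tested. That mean pattern, in centred log2 values, was -0.22, -0.29 and 0.11 in controls 1 to 3 and 0.18, 0.26 and -0.03 with doxycycline. Control 3 thus lay above doxycycline library 3, and the groups overlapped. ZDS, for a carotenoid desaturase, stood at 31.3, 32.1 and 45.2 FPKM in the control group against 46.0, 54.1 and 39.7 FPKM with doxycycline.

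Of the 10 members, 5 overlap no other annotated gene in assembly TAIR10.1, namely FTSH8, CLPP3, CLPP4, CLPC1 and CPN60A. The others do, and the sources used here do not say whether counting used strand. The overlapping genes reached at most 15.4 FPKM at FTSH2, 7.51 FPKM at CLPR1, 6.99 FPKM at FTSH1 and 2.25 FPKM at FTSH5, each far below the member. At CLPB3 the neighbour AT5G15440 reached at most 19.5 FPKM in any library, while CLPB3 itself stood at 16.6 to 58.1 FPKM. The pair was not compared library by library, so its reads are less certain.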

How the data were processed

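Per the labels' protocols, TRIzol was used to extract total RNA, and the VAHTS Universal V6 kit to prepare libraries. The authors deposited 1 table of FPKM values with 1 column per library. TopHat2 2.1.0, Cufflinks 2.2.1 and TAIR10 are named in the submitters' processing notes, with no role or order, and the unit was read from the values. FPKM is relative to each library's total, so a few abundant genes can move all others. The sources used here give neither strand handling nor read length. Depth was estimated from the step that 1 fragment makes in low FPKM values; 45.6% to 58.7% of low values were whole reads within 0.08 reads, too few for a count test.

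Values were analysed as log2(FPKM + 1), which understates the change of low genes, keeping genes whose mean reached 1 FPKM. Doxycycline and control were compared with limma 3.58.1 in R 4.3.3 (trend on abundance, no covariate, two-sided, Benjamini-Hochberg over 19035 genes, threshold 0.05). The fit was also run on simulated normal values. These held no library like control 1, so they do not show how the fit handles the present libraries. Ratios between members used exact permutation tests (SciPy 1.17.1). The libraries are called biological replicates, but separate plates or harvests are not stated, so p-values measure the spread between these libraries, which may be technical. Named were all members, fixed partners, the lowest p and the highest mean in each list, and the 5 genes most like the members; HSP21, CLPP1, CPN60B2's coding identity and ZDS's values were added after the values were seen. Members and lists were chosen with earlier results of these data known. RefSeq names (TAIR10.1) matched 10 of 10 members and 66 of 67 other listed genes; that assembly served for names, overlaps and coding identity (Biopython 1.88), and its coordinates are not given. Alternatives were pseudocounts 0.1 and 0.01, testing all genes or those averaging 5 FPKM or more, median-of-ratios scaling, quantile normalization, robust variances, a replicate block, each library left out, and control 1 as the only control.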

Additional observations from a re-analysis of the deposited data

How the results depend on the processing

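Pseudocounts 0.1 and 0.01, testing all genes or those averaging 5 FPKM or more, quantile normalization and robust variance estimates changed no member's sign or side of the threshold. Median-of-ratios scaling turned the sign of CLPC1 only, to 0.091 log2. Leaving out 1 library at a time gave 0 to 8637 genes past the threshold (8637 without control 1, 2 without control 3 and 0 otherwise), 0 to 3 members past it (FTSH2, CLPP4 and CLPB3, all without control 1) and 3 to 5 members whose groups did not overlap (5 without control 2, control 3 or doxycycline library 3, where 43.9%, 41.4% and 43.4% of all genes did not overlap). The wider plastid genes past the threshold ranged from 0 to 25 of 46 (25 without control 1, where 45.4% of all genes passed). Those above every control ranged from 22 to 25, beside 10.5% to 15.9% of all genes. Both counts were added after the data were seen. Over these fits the difference ranged from -0.093 to 0.27 log2 for FTSH1, from -0.11 to 0.49 for FTSH8, from -0.028 to 0.15 for CLPP3, and the CLPC1 to CLPB3 ratio from -0.0053 to 0.96.

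With control 1 as the only control, 2194 genes and 2 members passed (CLPP4 and CPN60A), 9 members did not overlap (73.9% of all genes), 9 wider plastid genes passed, and 38 of 46 lay above it (37.0% of all genes); a single control makes such separation easy. The sign of CLPB3 turned to 0.50 log2, and of the ratios FTSH8 to FTSH2 to 0.33, type A to type B to 0.21 and CLPC1 to CLPB3 to -0.91, while FTSH1 to FTSH5 was -0.23, CLPP3 to CLPP4 -0.56 and CLPR1 to CLPP4 -0.52. The cause was not tested.

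Same-numbered libraries did not deviate together (r = -0.0016, -0.014 and -0.14), and 0 of 6 libraries correlated best with their own number. No pairing by number was thus seen, but with 3 libraries a group this comparison could miss a shared plate or harvest. With a replicate block 0 genes and 0 members passed. CLPP4 then had an adjusted p of 0.137 (limma), and no ratio could go below an exact p of 0.25. Depth limits none of the members, which stood at 16.6 FPKM or more, but 3 libraries a group limit every interval given.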
